A study of Mus musculus with 10 samples.

Results

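10 genes whose transcripts set apart mouse embryonic stem cells (ESCs) depleted of Wapal from ESCs depleted of Smc3 were followed on every array: Fstl5, Fam43a, Mymx, Mras, Gsta3, Glod5, Plcxd1, Dmkn, Gm364 and Pex6. They were selected on the intensities of these same arrays, because Wapal-depleted and Smc3-depleted cells differed with each short-hairpin RNA (shRNA), so the difference between the depletions that chose them is given as a description, with no test. All probe sets with 1 of these symbols as their only gene symbol were taken, which gave 18 probe sets of 10 genes out of 45037 probe sets and 18193 genes. The cells were CJ9 ESCs, a line derived from 129SvJ mice, infected for 48 h with lentivirus in polybrene (10 µg/mL), then moved to ESC medium with LIF and puromycin (4 µg/mL) and cultured for 48 h post infection. The groups were Wapal shRNA1, Wapal shRNA2, Smc3 shRNA1, Smc3 shRNA2 and Empty Vector, a virus with no hairpin, with 2 arrays each. Cultures were mixtures of infected cells selected with puromycin, and no group carried a non-targeting hairpin. The study calls the replicates biological, but neither it nor the labels say whether they were separate infections. The p-values therefore measure the spread between these samples, which may be technical. RNA came from whole cultures, so a smaller share of cells that express a gene and less RNA per cell cannot be told apart.

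Cohesin is a ring that holds DNA loops and sister chromatids together. Smc3 is a core subunit of the ring, and Wapal (gene symbol Wapl) opens it and releases cohesin from chromatin. By these roles, losing Smc3 would take away the ring, whereas losing Wapal would leave it on DNA for longer. The study saw no significant rise in binding of the core subunit Rad21 at several shared sites after Wapal depletion. It also reports very similar expression changes with Wapal and Smc3 depletion. Genes that differ between these depletions are of interest for comparing loss of the ring with loss of Wapal. The brightest Wapl probe set (1434835_at) had intensities of 929, 1005, 235 and 217 in Wapal-depleted cells (the first pair with shRNA1), against 2536, 2511, 2985 and 3104 in Smc3-depleted cells and 2500 and 2648 with Empty Vector. The brightest Smc3 probe set (1450950_at) had 1434 to 1517 in Wapal-depleted cells, 176 to 223 in Smc3-depleted cells, and 1536 and 1555 with Empty Vector. Each target was therefore low only with its own hairpins on these probe sets.

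All 10 ESC marker genes listed were measured well above the dim range (mean log2 of 9.12 to 14.4), and their summed intensity was 64670 to 73740 in Wapal-depleted, 59250 to 66710 in Smc3-depleted and 66850 to 70830 in Empty Vector cells. With all depletions together, 4 of the 10 were below Empty Vector by limma, Klf4 (-0.77, adjusted p = 0.000949), Esrrb (-0.71, adjusted p = 0.00238), Nanog (-0.34, adjusted p = 0.0193) and Zfp42 (-0.33, adjusted p = 0.0334), and Tdgf1 was above it (0.29, adjusted p = 0.0422). Between the depletions 3 were higher with Wapal than with Smc3 hairpins, Fgf4 (0.75, adjusted p = 0.000364), Nanog (0.74, adjusted p = 8.84e-05) and Zfp42 (0.23, adjusted p = 0.0481), and their part in the differences of the 10 genes was not tested. Among markers of other cell types, 5 of 6 fibroblast, 6 of 7 skeletal muscle and 6 of 7 keratinocyte genes were dim, here a mean log2 under 6, a range in which much of the intensity can be background. The summed intensity of the fibroblast genes was 197.5 to 236 in Wapal-depleted, 187 to 206 in Smc3-depleted and 257.5 to 298 in Empty Vector cells. Thy1, the fibroblast gene that was not dim, was below Empty Vector with all depletions together (-0.79 ± 0.09, adjusted p = 0.00075) and higher with Wapal than with Smc3 depletion (0.27, adjusted p = 0.0427), and its part in other differences was not tested. A split of the arrays into 2 sides was set in the analysis, is given by no label, and cuts across the targets. On 1 side are Empty Vector replicate 1, Wapal shRNA1 and Smc3 shRNA2. The other holds Empty Vector replicate 2, Wapal shRNA2 and Smc3 shRNA1. The labels name no batch, and a comparison of hairpins against 1 gene runs along this split. Differences within each side are given below only for Glod5 and Gm364, though other genes differed between the sides too. For Fam43a, Wapal minus Empty Vector was 0.30 within the side of Empty Vector replicate 1 and -0.30 within that of replicate 2. For Dmkn, Wapal minus Smc3 was -1.48 and -2.17 within these sides. Titles of the Smc3 samples are written in another form and the design text names only Empty Vector and Wapal shRNAs, so Smc3 depletion and a separate array run cannot be told apart from the labels. Of 18 hybridisation and 27 poly-A control probe sets, 0 had all 4 Smc3 arrays above or below the other 6, where 6.27% of all probe sets did. The median poly-A control was 0.00 with Wapal and -0.16 with Smc3 depletion relative to Empty Vector, and the median hybridisation control 0.04 and -0.01, and the part of such a shift in the values of the 10 genes was not tested.

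On 15 of the 18 probe sets, at least 1 for each gene, the 4 Wapal arrays and the 4 Smc3 arrays did not overlap. Such a separation was found for 14.5% of all probe sets, and 17.4% passed the limma test between the depletions (adjusted p under 0.05), so a difference between these depletions was common on the array. The 10 genes were chosen for it, and nothing is read from their count. The gap between the nearest arrays was wide for most of them: 16 named genes had a gap of at least 1 in log2, and 7 of these were Plcxd1, Glod5, Pex6, Dmkn, Mras, Gm364 and Fam43a. The other 9 were both targets, Wapl and Smc3, and Lefty1, Inhbb, Pla2g1b, Hs6st2, Ppm1h, Pim2 and Dnajc22. Mymx (gap of 0.96) and Gsta3 (0.92) lay just below, and Fstl5 had gaps of 0.65 and 0.54 on its probe sets. Just inside the separation was the Mras probe set 1453419_at, with a gap of 0.10. The Pex6 probe sets 1456302_at and 1438138_a_at were not separated, with overlaps of 0.15 and 0.18. Nor was the brightest Plcxd1 probe set (1440505_at), with an overlap of 0.32. Wapal minus Smc3 depletion was -0.061, 0.095 and -0.004 on these, in the same order.

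**Figure D1:**
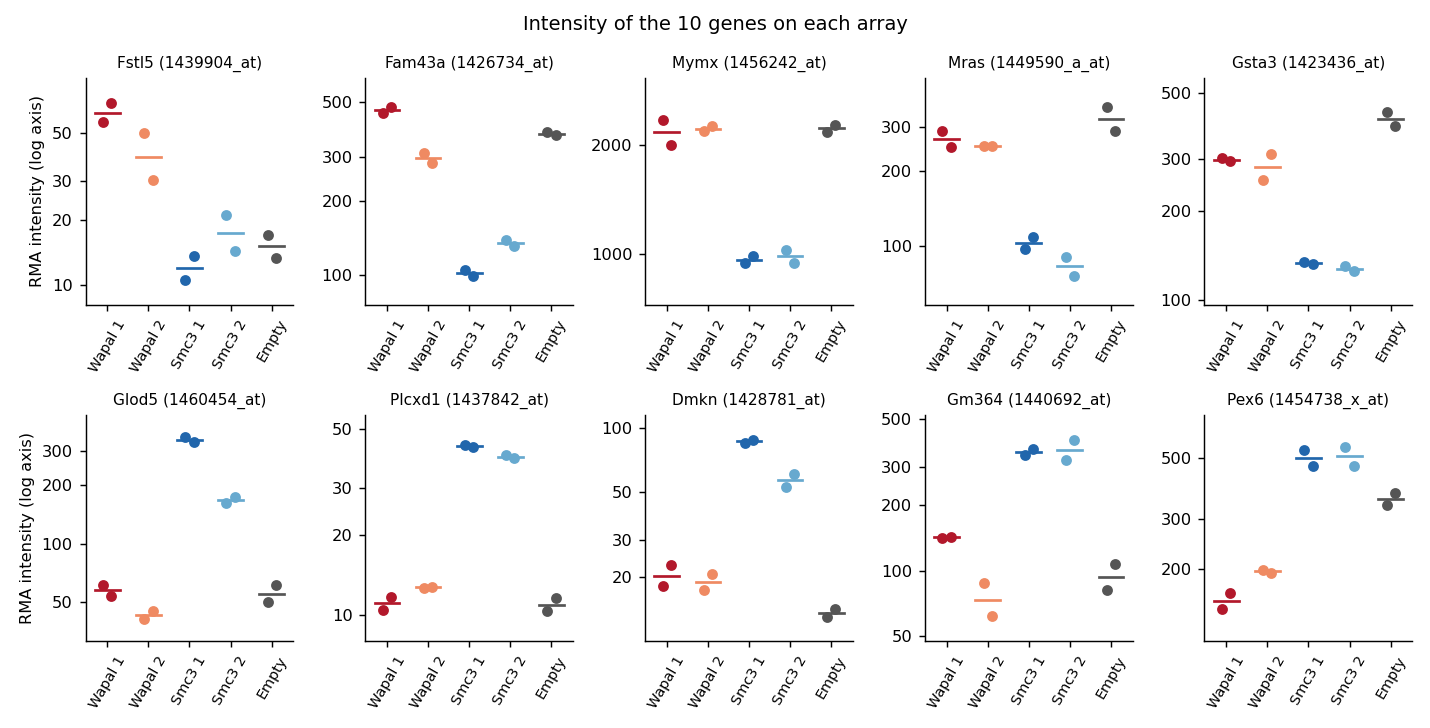
RMA intensity (log axis) of each gene on each of the 10 arrays, on its brightest probe set that separated the depletions; points are arrays and lines the geometric mean of a group (Wapal shRNA1 and shRNA2, Smc3 shRNA1 and shRNA2, Empty Vector). Fstl5 stood apart in Wapal-depleted cells, Pex6 was on opposite sides of Empty Vector, and for the other 8 genes the Smc3 arrays lay farther from Empty Vector than the Wapal arrays.

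Measured against Empty Vector, the 10 genes fell into 3 patterns. Fstl5 was high in Wapal-depleted cells and near Empty Vector in Smc3-depleted cells. Fam43a, Mymx, Mras and Gsta3 were low, and Glod5, Plcxd1, Dmkn and Gm364 high, in Smc3-depleted cells, with Wapal-depleted cells nearer to Empty Vector. Pex6 was low in Wapal-depleted and high in Smc3-depleted cells. Against Empty Vector, 8 of the 18 probe sets (5 genes) passed the test with Wapal depletion, where 5.91% of all probe sets did, and 13 (9 genes) passed with Smc3 depletion, where 7.62% did. These counts use the same arrays as the choice of the genes and the same 2 Empty Vector arrays, so they describe where the difference lay. Among all 20 probe sets with a gap of at least 1, the Smc3 arrays were the farther from Empty Vector on 15, whereas among all 4733 probe sets that were separated and passed the test the share was 50.2%. The 20 include probe sets of 7 of the 10 genes and of both targets, so their share in part restates the choice of the genes.

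**Figure D2:**
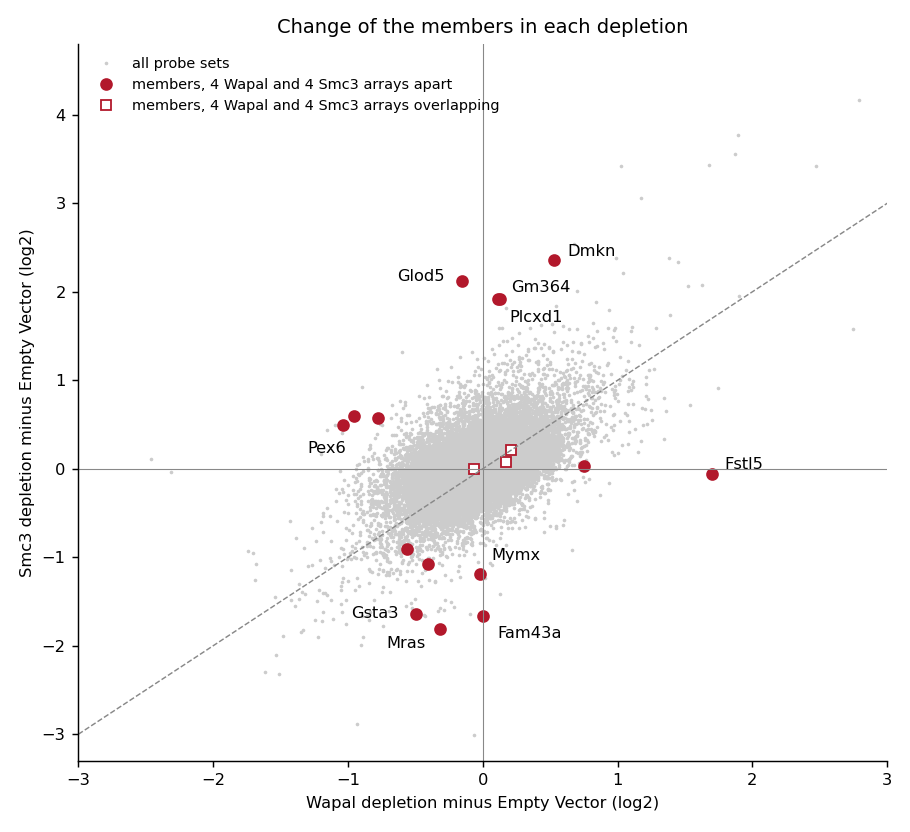
Log2 difference from Empty Vector with Wapal depletion (x axis) and Smc3 depletion (y axis) for all 45037 probe sets (grey) and the 18 probe sets of the 10 genes (red; open squares where Wapal and Smc3 arrays overlapped); the dashed line marks equal change. Fstl5 lies far along the Wapal axis, 8 genes lie far along the Smc3 axis, and Pex6 lies at the upper left.

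The mean of all 4 hairpin groups against Empty Vector was tested with limma over all probe sets. The genes were not chosen on this contrast, but it uses the same shRNA arrays as their choice. A gene with a large difference between the depletions lies away from Empty Vector with Wapal depletion, Smc3 depletion or both. Its mean then moves too, unless the depletions cancel. The counts of the chosen genes therefore partly follow from the choice and are not an independent test, and the share of all probe sets is not a matched comparison. On 12 of the 18 probe sets the level differed from Empty Vector (adjusted p under 0.05), where 8.03% of all probe sets did; taking the brightest probe set of each gene, 8 of 10 passed. Fstl5, Glod5, Plcxd1 (on 1437842_at), Dmkn and Gm364 were higher with depletion, and Fam43a, Mymx, Mras and Gsta3 lower. Pex6 did not pass on any of its 5 probe sets. This mean takes in both depletions and does not say which of them moved; the values of each depletion are given beside it.

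Fstl5 encodes a secreted, calcium-binding glycoprotein of the follistatin-like family. On its brighter probe set (1439904_at) the intensity was 55.9, 68.0, 49.6 and 30.4 in Wapal-depleted cells, against 10.6, 13.7, 20.9 and 14.4 in Smc3-depleted cells and 17.1 and 13.3 with Empty Vector. All 4 Wapal arrays lay above every other array, and the Smc3 and Empty Vector arrays overlapped. Wapal depletion stood 1.76 ± 0.17 (SE) in log2 above Smc3 depletion and 1.70 ± 0.20 above Empty Vector, whereas Smc3 depletion stood at -0.06 ± 0.18 from Empty Vector. The other probe set (1436800_at) gave the same order at a lower level, with 22.9 to 24.9 in Wapal-depleted cells, 13.9 to 14.7 in Smc3-depleted cells, and 14.5 and 13.6 with Empty Vector. Averaged over all hairpins, Fstl5 was above Empty Vector by 0.82 ± 0.20 (adjusted p = 0.0285) and, on the other probe set, by 0.39 ± 0.07 (adjusted p = 0.0098). Both probe sets were dim. Without 1 of the 2 Empty Vector arrays the first value no longer passed (adjusted p = 0.0784 without replicate 1 and 0.163 without replicate 2), nor did it without Wapal shRNA1 replicate 2 (0.0545) or Smc3 shRNA1 replicate 2 (0.0523), and the other probe set did not pass without Empty Vector replicate 2 (0.062).

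Follistatin and related proteins bind activins and BMPs or the extracellular matrix. Of 11 other genes of this family, 8 were dim, Fst and Fstl3 among them. Fst, the founding member, was 0.73 ± 0.10 higher in Wapal-depleted than in Smc3-depleted cells (adjusted p = 0.000668) and fell by 0.81 ± 0.11 with all depletions together (adjusted p = 0.00148). Fstl1 was above Empty Vector by 0.45 ± 0.07 (adjusted p = 0.00497) and Fstl3 by 0.62 ± 0.16 (adjusted p = 0.0366), and neither passed between the depletions. Sparc was 0.32 ± 0.07 lower in Wapal-depleted than in Smc3-depleted cells (adjusted p = 0.0101). The pattern of Fstl5 was therefore shared in direction by Fst between the depletions but not against Empty Vector.

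Fam43a, of the FAM43 family, whose role is little described, was one of 4 genes that were low with Smc3 hairpins. Its probe set (1426734_at) had 453 and 481 in cells with Wapal shRNA1, 311 and 285 with Wapal shRNA2, 105 and 98.9 with Smc3 shRNA1, 138 and 132 with Smc3 shRNA2, and 378 and 368 with Empty Vector. The Smc3 arrays were all below the rest, while Wapal shRNA1 lay above and Wapal shRNA2 below both Empty Vector arrays. Wapal depletion stood at 0.00 ± 0.09 from Empty Vector, a mean of unlike hairpins, and Smc3 depletion at -1.67 ± 0.09. With all depletions together the gene fell by 0.83 ± 0.08 (adjusted p = 0.000217). The hairpins against each target differed: Wapal shRNA1 was 0.65 ± 0.10 above Wapal shRNA2 (adjusted p = 0.00866), and Smc3 shRNA1 was 0.41 ± 0.10 below Smc3 shRNA2 (-0.41, adjusted p = 0.0211). The Empty Vector arrays of these sides differed by -0.04. Fam43b, the other gene of the family, was dim and passed neither test.

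Mymx encodes the micropeptide myomixer, which drives the fusion of myoblasts together with the membrane protein myomaker (Mymk). It was bright on its 1 probe set (1456242_at), with 2351 and 2000 in Wapal shRNA1, 2191 and 2252 in Wapal shRNA2, 941, 986, 1026 and 945 in Smc3-depleted, and 2168 and 2277 in Empty Vector cells. Wapal-depleted and Empty Vector cells overlapped, and the Smc3 arrays were lower than all others with little spread (SD of 0.06 in log2, n = 4). Mymx stood at -0.02 with Wapal depletion and at -1.19 ± 0.09 with Smc3 depletion, relative to Empty Vector, and fell by 0.60 ± 0.09 with all depletions together (adjusted p = 0.00209). Of 11 other genes of muscle fusion and muscle regulation, 10 were dim. Ckm (0.32 ± 0.08, adjusted p = 0.0215) and Pax7 (0.29 ± 0.08, adjusted p = 0.039), both dim, were slightly higher with Wapal than with Smc3 depletion. Summed skeletal muscle markers were 283 to 294 in Wapal-depleted, 280 to 302 in Smc3-depleted and 257 to 306 in Empty Vector cells.

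Mras encodes a small GTPase that, with Shoc2 and the phosphatase PP1, activates RAF kinases. Probe set 1449590_a_at had 289, 249, 252 and 251 in Wapal-depleted cells, 96.8, 108, 90.3 and 75.3 in Smc3-depleted cells, and 363 and 288 with Empty Vector. All Smc3 arrays were below every other array, and the highest Wapal array lay between the Empty Vector arrays. The difference from Empty Vector was -0.32 ± 0.12 with Wapal depletion and -1.82 ± 0.13 with Smc3 depletion, and that with all depletions together was -1.06 ± 0.11 (adjusted p = 0.000413). The dimmer probe set (1453419_at) separated the depletions by far less, with 114 to 145 in Wapal-depleted, 96.9 to 106 in Smc3-depleted, and 207 and 176 in Empty Vector cells. There Wapal depletion lay at -0.56 ± 0.13 and Smc3 depletion at -0.90 ± 0.10 from Empty Vector, so the probe sets of Mras do not agree on how near Wapal-depleted cells were to the control. Of 13 other RAS and RAF pathway genes, none of them dim, Rap1a was 0.23 ± 0.07 higher (adjusted p = 0.0473) and Araf lower (-0.26 ± 0.07, adjusted p = 0.0238) in Wapal-depleted than in Smc3-depleted cells, and Rras was 0.42 ± 0.11 above Empty Vector (adjusted p = 0.039).

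Gsta3 encodes an alpha-class glutathione S-transferase, which conjugates glutathione to electrophiles. On 1423436_at it had 302, 297, 255 and 313 in Wapal-depleted cells, 135, 133, 130 and 126 in Smc3-depleted cells, and 432 and 388 with Empty Vector. The 3 conditions did not overlap, with Wapal-depleted cells between Smc3-depleted cells, the lowest, and Empty Vector. The same order held on 1423437_at, a dim probe set, with 22.4 to 30.1 in Wapal-depleted, 14.8 to 17.6 in Smc3-depleted, and 36.9 and 31.6 in Empty Vector cells. Gsta3 stood at -0.50 ± 0.11 with Wapal depletion and -1.65 ± 0.09 with Smc3 depletion, relative to Empty Vector, and fell by 1.07 ± 0.09 with all depletions together (adjusted p = 0.000136). Alpha-class transferases are close in sequence, and cross-hybridisation between them was not tested.

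Gsta3 belongs to the genes through which cells handle electrophiles, many of them targets of the transcription factor Nrf2 (Nfe2l2). Of 29 other such genes, 4 were above and 3 below Empty Vector, and 3 were higher and 5 lower in Wapal-depleted than in Smc3-depleted cells. Nfe2l2 itself (0.60 ± 0.09, adjusted p = 0.00132) and the quinone reductase Nqo1 (0.57 ± 0.08, adjusted p = 0.00111) were, like Gsta3, higher with Wapal than with Smc3 depletion, and Nqo1 was also below Empty Vector (-0.43 ± 0.09, adjusted p = 0.0169). Other transferases had the opposite sign, with Gstk1 at -0.95 ± 0.10 (adjusted p = 0.000161) and Mgst3 at -0.46 ± 0.08 (adjusted p = 0.00231) between the depletions. The haem oxygenase Hmox1, another Nrf2 target, had that sign too (-0.47 ± 0.10, adjusted p = 0.00883). Keap1, the inhibitor of Nrf2, was higher with Wapal than with Smc3 depletion (0.21 ± 0.07, adjusted p = 0.0484) and below Empty Vector (-0.48 ± 0.07, adjusted p = 0.00324). Srxn1 was also below Empty Vector (-0.45 ± 0.08, adjusted p = 0.00679). Mgst1 (0.94 ± 0.10, adjusted p = 0.000559), Gstt2 (0.87 ± 0.12, adjusted p = 0.00179), the glutathione synthesis gene Gclc (0.53 ± 0.08, adjusted p = 0.00341) and Gstm5 (0.40, adjusted p = 0.0371) were above Empty Vector with all depletions together.

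The promoters of Fam43a and Gsta3, which moved in the same direction with Smc3 depletion, are printed to show how unlike they are (RefSeq, GRCm38.p6, from 250 bases before to 50 after the start, CpG dinucleotides in capitals). Fam43a holds 21 CpGs, at 0.93 of the number its base composition predicts, and Gsta3 holds 2, at 0.16, against a median of 7 and 0.38 over the 32851 promoters of the table.
Fam43a, chr16:30599473-30599772, plus strand: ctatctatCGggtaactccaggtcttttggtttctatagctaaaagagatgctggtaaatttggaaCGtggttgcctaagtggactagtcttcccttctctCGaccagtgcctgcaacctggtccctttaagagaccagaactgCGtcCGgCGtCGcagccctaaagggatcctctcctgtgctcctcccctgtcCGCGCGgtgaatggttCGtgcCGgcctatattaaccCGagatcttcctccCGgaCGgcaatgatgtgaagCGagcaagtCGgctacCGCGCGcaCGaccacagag
Gsta3, chr1:21240335-21240634, plus strand: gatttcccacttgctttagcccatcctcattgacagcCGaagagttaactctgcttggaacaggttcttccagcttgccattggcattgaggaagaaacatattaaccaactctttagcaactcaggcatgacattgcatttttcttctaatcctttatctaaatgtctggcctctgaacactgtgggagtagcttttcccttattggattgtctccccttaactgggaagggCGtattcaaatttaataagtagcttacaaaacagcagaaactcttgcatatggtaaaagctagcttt

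Glod5, a gene with a glyoxalase domain, was the first of 4 genes that were high with Smc3 hairpins. Its probe set (1460454_at) had 61.2, 54.0, 40.8 and 45.1 in Wapal-depleted cells, 354 and 335 with Smc3 shRNA1, 162 and 175 with Smc3 shRNA2, and 50.03 and 61.1 with Empty Vector. Every Smc3 array was above every other array, and the hairpins against Smc3 did not overlap. Wapal depletion stood at -0.15 from Empty Vector and Smc3 depletion 2.12 ± 0.11 above it, and the gene rose by 0.98 ± 0.10 with all depletions together (adjusted p = 0.000298). Smc3 shRNA1 was 1.03 ± 0.12 above Smc3 shRNA2 (adjusted p = 0.00056). The Wapal hairpins differed by 0.42 ± 0.12, which did not pass (adjusted p = 0.0924). Within the sides, Wapal minus Smc3 was -1.55 on that of Empty Vector replicate 1 and -3.005 on that of replicate 2. The glyoxalase genes Glo1, Glod4 and Hagh were bright and passed neither test.

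Plcxd1 encodes a protein with the X domain of phosphatidylinositol-specific phospholipase C. Its probe set 1437842_at had 10.4, 11.6, 12.6 and 12.7 in Wapal-depleted cells, 43.6, 42.8, 39.9 and 39.1 in Smc3-depleted cells, and 10.3 and 11.5 with Empty Vector. These are dim values, yet the Smc3 arrays were tight and far from all others, with Wapal depletion at 0.12 and Smc3 depletion at 1.92 ± 0.09 from Empty Vector and a rise of 1.02 ± 0.08 with all depletions together (adjusted p = 7.92e-05). The brighter probe set of the same symbol (1440505_at) showed none of this, at 55.4 to 68.6 in Wapal-depleted, 54.5 to 69.3 in Smc3-depleted, and 56.1 and 51.5 in Empty Vector cells. It gave 0.21 with all depletions together (adjusted p = 0.257) and 0.00 between the depletions. The separation by Plcxd1 thus rests on 1 of its 2 probe sets, and which transcript each one reads was not tested.

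Dmkn encodes dermokine, a secreted protein of the differentiating epidermis. Probe set 1428781_at had 18.2, 22.8, 17.5 and 20.8 in Wapal-depleted cells, 84.5 and 88.0 with Smc3 shRNA1, 52.9 and 61.1 with Smc3 shRNA2, and 13.1 and 14.2 with Empty Vector. The probe set was dim (mean log2 of 4.93), yet no arrays of the 3 conditions overlapped, and both depletions lay above Empty Vector. The distance was 0.53 ± 0.13 with Wapal depletion and 2.36 ± 0.10 with Smc3 depletion, and the rise with all depletions together was 1.45 ± 0.11 (adjusted p = 6.13e-05). Smc3 shRNA1 was 0.60 ± 0.14 above Smc3 shRNA2 (adjusted p = 0.0159). Sbsn, a neighbour of Dmkn that is also expressed in epidermis, was above Empty Vector by 0.70 ± 0.10 (adjusted p = 0.00281) and 0.42 ± 0.09 lower with Wapal than with Smc3 depletion (-0.42, adjusted p = 0.0117), and Krtdap on the other side of the gene was above Empty Vector by 0.54 ± 0.14 (adjusted p = 0.0422). Both were dim, among 7 dim genes of the 8 epidermal genes listed. The others listed, Krt1, Krt10, Krt5, Krt14, Ivl and Flg, passed neither test. Summed keratinocyte markers were 320 to 356 in Wapal-depleted, 345 to 441 in Smc3-depleted and 318 to 348 in Empty Vector cells. Sbsn and Krtdap are among these markers. The part of the markers in the level of Dmkn was not tested.

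Gm364 is a predicted gene on chromosome X. Its probe set (1440692_at) had 142 and 144 with Wapal shRNA1, 88.0 and 61.7 with Wapal shRNA2, 340 and 364 with Smc3 shRNA1, 323 and 400 with Smc3 shRNA2, and 81.9 and 108 with Empty Vector. All Smc3 arrays were above the rest, Wapal shRNA1 was above both Empty Vector arrays, and Wapal shRNA2 was among or below them. Smc3 depletion stood 1.92 ± 0.14 above Empty Vector, with hairpins that differed by less than their spread (-0.03 ± 0.18), and the rise with all depletions together was 1.02 ± 0.14 (adjusted p = 0.00196). Wapal shRNA1 was 0.95 ± 0.18 above Wapal shRNA2 (adjusted p = 0.0204), and the Empty Vector arrays of those sides differed by 0.40 in the opposite direction. Wapal minus Empty Vector was 0.80 within the side of Empty Vector replicate 1 and -0.55 within that of replicate 2, so its mean of 0.13 describes neither hairpin. All depletions minus Empty Vector was 1.47 and 0.58 within these sides.

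**Figure D3:**
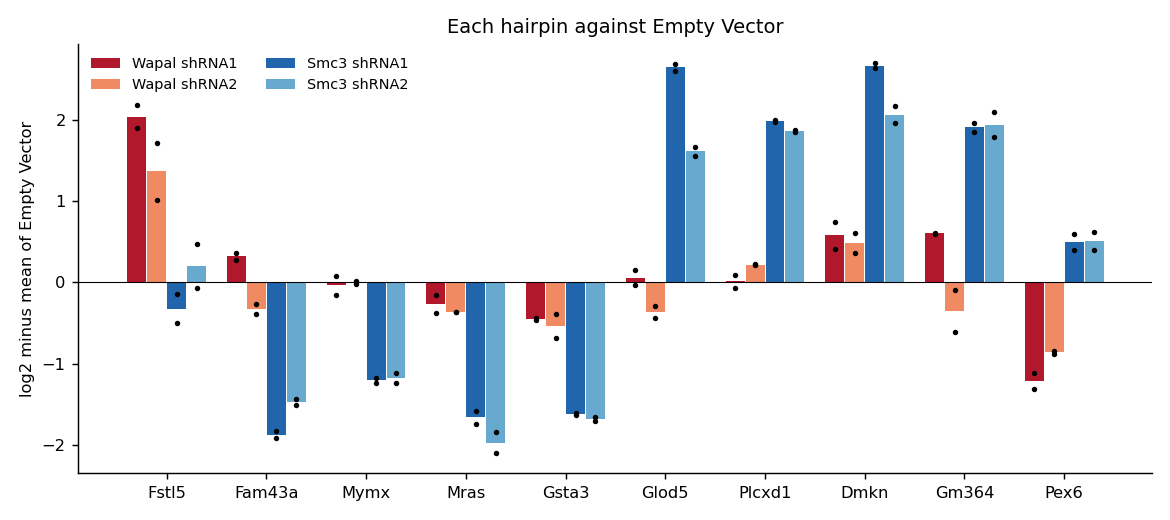
Mean log2 of each hairpin group minus the mean of Empty Vector (bars; points are single arrays) for the 10 genes, on the probe sets plotted by array above. Hairpins against the same target differ for Fam43a, Glod5, Dmkn and Gm364, and Pex6 bars point down for Wapal and up for Smc3.

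Between hairpins against the same gene, 2 of the 18 probe sets passed for Wapal (Fam43a and Gm364), where 3.36% of all probe sets did, and 3 passed for Smc3 (Fam43a, Glod5 and Dmkn), where 12.7% did. The genes were picked for a difference between the depletions with every hairpin, which bounds how far hairpins against the same target could lie apart. Fam43a differed between both pairs of hairpins, and the other 6 genes (Fstl5, Mymx, Mras, Gsta3, Plcxd1 and Pex6) passed for neither pair. Since these comparisons follow the sides of the arrays, hairpin and side cannot be told apart in them. Elsewhere the study lists 2 of the Wapal arrays, replicate 2 of shRNA1 and replicate 1 of shRNA2, in exchanged places. With their labels exchanged, 0 probe sets passed limma between the Wapal hairpins (1225 at an unadjusted p under 0.05), Fam43a differed by 0.02 and Gm364 by 0.25. Under the labels used, Wapl itself agreed within each pair of replicates.

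Pex6 encodes an AAA ATPase that pulls the import receptor Pex5 back out of the peroxisome membrane. It alone was on opposite sides of Empty Vector. On 1454738_x_at it had 143 and 164 with Wapal shRNA1, 198 and 193 with Wapal shRNA2, 534 and 467 with Smc3 shRNA1, 546 and 467 with Smc3 shRNA2, and 338 and 373 with Empty Vector. All 4 Wapal arrays were below and all 4 Smc3 arrays above both Empty Vector arrays, and the same was true of 1424078_s_at (63.4 to 77.0 with Wapal and 171 to 234 with Smc3 hairpins, against 125 and 155 with Empty Vector) and of 1451226_at (58.9 to 86.5 with Wapal and 161 to 181 with Smc3 hairpins, against 106 and 126 with Empty Vector). On the first of these Wapal depletion stood at -1.04 ± 0.10 and Smc3 depletion at 0.50 ± 0.11 from Empty Vector, a difference of -1.54 ± 0.09. The mean of all depletions cancels such a pattern and did not pass on these probe sets (-0.27, adjusted p = 0.121; -0.18, adjusted p = 0.347; -0.10, adjusted p = 0.639). The remaining probe sets, 1438138_a_at and 1456302_at, were alike on all arrays, so 3 of 5 probe sets carry the difference; 2 of these 3 have suffixes that Affymetrix gives to sets that may read further transcripts. Empty Vector lay between the depletions for 5 of the 20 probe sets with a gap of at least 1 and for 9.21% of the 4733 separated ones. Those 5 include the Pex6 probe sets 1454738_x_at and 1424078_s_at themselves.

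Of 12 other peroxisome assembly factors (peroxins) measured, none of them dim, 2 were higher and 3, in the direction of Pex6, lower in Wapal-depleted than in Smc3-depleted cells. Pex26, which anchors Pex6 to the membrane, was lower by 0.50 (-0.50 ± 0.08, adjusted p = 0.00212), and so were Pex7 (-0.38 ± 0.07, adjusted p = 0.00285), a receptor for matrix proteins, and Pex2 (-0.32 ± 0.08, adjusted p = 0.0165), a membrane ubiquitin ligase. Pex19 was higher (0.39 ± 0.08, adjusted p = 0.00562), as was Pex13 (0.25 ± 0.07, adjusted p = 0.03). Pex5 was below Empty Vector with all depletions together (-0.55 ± 0.13, adjusted p = 0.0279).

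Promoters of Dmkn and Pex6, high with Smc3 depletion, again differed in CpG content: 5 CpGs (0.25 of the predicted number) for the upstream start of Dmkn and 22 (0.85) for Pex6. A ratio of at least 0.6 was found for 4 of 12 promoters of the 8 genes in the table and for 35.8% of all promoters. The sequences are given for the 2 genes with the same conventions.
Dmkn, chr7:30763506-30763805, plus strand: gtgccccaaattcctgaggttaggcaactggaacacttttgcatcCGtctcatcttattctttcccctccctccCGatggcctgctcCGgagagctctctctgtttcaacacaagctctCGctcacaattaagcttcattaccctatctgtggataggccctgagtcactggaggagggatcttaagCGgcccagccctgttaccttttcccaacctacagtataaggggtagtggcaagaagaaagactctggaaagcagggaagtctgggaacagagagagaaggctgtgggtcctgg
Pex6, chr17:46711226-46711525, plus strand: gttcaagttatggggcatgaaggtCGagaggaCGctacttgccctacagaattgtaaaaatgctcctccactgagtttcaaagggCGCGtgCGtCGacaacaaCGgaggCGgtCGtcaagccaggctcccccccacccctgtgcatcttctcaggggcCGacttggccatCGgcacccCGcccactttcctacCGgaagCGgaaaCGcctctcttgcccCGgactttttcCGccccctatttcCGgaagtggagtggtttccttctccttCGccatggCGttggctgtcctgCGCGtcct

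Short motifs were searched on both strands of these 300-base windows, as a description only. Mymx and Glod5 had no promoter among those available, so theirs were not searched. The core of the antioxidant response element (TGACNNNGC), through which Nrf2 acts, was in 2 of 12 promoters, 1 of Gsta3 and 1 of Plcxd1, and in 12.4% of all promoters. The TATA motif TATAAA was in 1, of Fstl5 (13.6% of all), there on the opposite strand, near the upstream end of the window and far from the start. The E-box CAGCTG, bound by myogenic factors, was in 3, of Mras, Plcxd1 and Gm364 (16.3% of all). A match is not a bound site, and its absence says nothing of sites elsewhere.

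**Figure D4:**
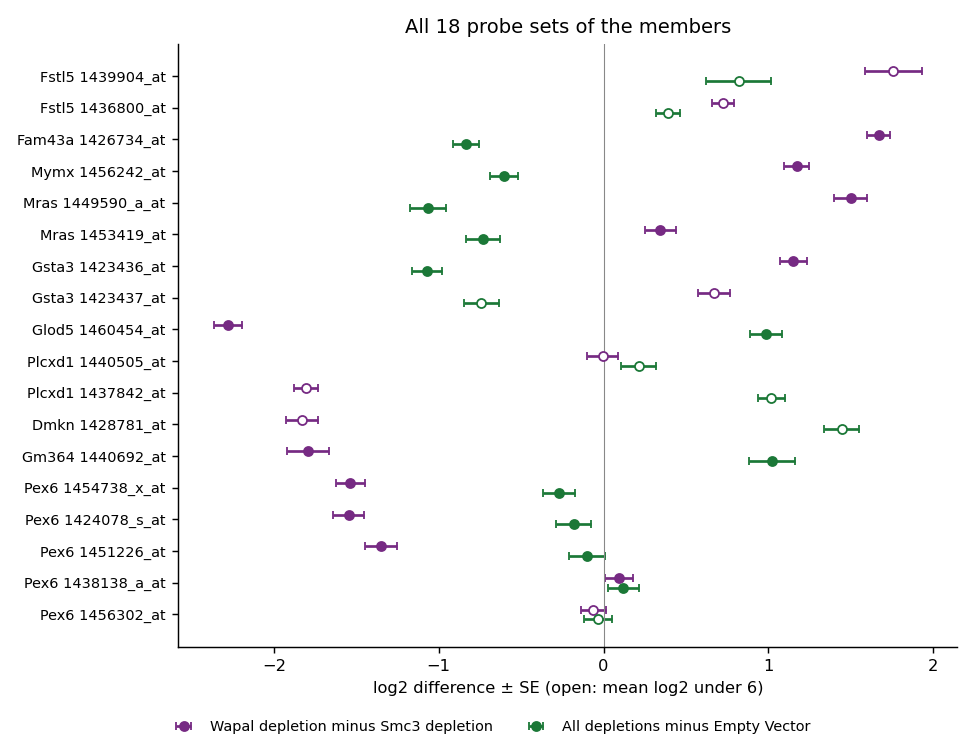
Log2 difference ± SE of all 18 probe sets, for Wapal depletion minus Smc3 depletion (purple) and for all depletions minus Empty Vector (green); open symbols have a mean log2 under 6. The Pex6 probe sets that separate the depletions have green values near 0, and 1440505_at of Plcxd1 and 2 Pex6 probe sets have neither difference.

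Neighbouring genes were examined to see whether a whole locus differed. For each of the 10 genes the 2 nearest measured genes on either side were taken from the RefSeq order, 40 genes in all. Between the depletions 8 of 40 passed (20%), against 22.5% of the 18193 genes on their brightest probe set, and against Empty Vector 5 of 40 (12.5%) passed, against 10.3%. The median size of the difference between the depletions was 0.17 for the neighbours and 0.14 for all genes. None of the neighbours of Pex6 (Mea1, Ppp2r5d, Gnmt and Cnpy3), Fam43a or Glod5 passed between the depletions. Neighbours that differed in the direction of the gene beside them were Slc29a1 next to Mymx (0.68, adjusted p = 0.000685), Crlf2 next to Plcxd1 (-0.76, adjusted p = 0.00134) and Sbsn next to Dmkn. Tmem14a, beside Gsta3, had the opposite sign (-1.03, adjusted p = 3.62e-05), as had Rapgef2 beside Fstl5 (-0.29, adjusted p = 0.0415), Cep70 (-0.29, adjusted p = 0.037) and Armc8 (-0.35, adjusted p = 0.0101) beside Mras, and 4930550L24Rik beside Gm364 (0.44, adjusted p = 0.00666).

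**Figure D5:**
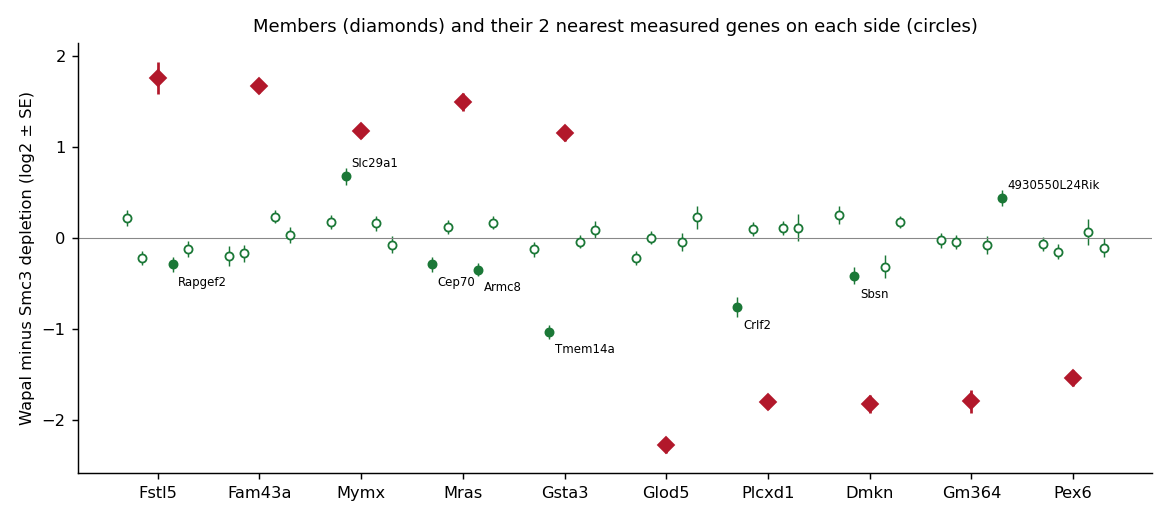
Wapal minus Smc3 depletion (log2 ± SE) for each of the 10 genes (red diamonds) and its 2 nearest measured genes on either side in chromosome order (green circles; filled where adjusted p was under 0.05). The neighbours lie nearer to 0 than the gene they flank, with Tmem14a beside Gsta3 at -1.03 as the farthest of the 40.

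Among 1382 probe sets of single genes with a mean log2 of at least 6 and a range of at least 1, those most like each of the 10 genes over the 10 arrays were found by Pearson's r, which mainly reflects the arrays' groups and is given as a description. Mymx was most like Smc3 itself (0.99), followed by Hmga2 (0.96). Fam43a was nearest to Bmp4 (0.98) and Pla1a (0.97), Mras to Mtrf1l (0.99) and Kank4 (0.97), and Gsta3 to Kank4 (0.97) and Car2 (0.97). For genes high with Smc3 hairpins the nearest were Dtd1 (0.99) and Tmem98 (0.98) for Glod5, Foxp1 (0.99) and Pim2 (0.98) for Plcxd1 on 1437842_at, Tmem98 (0.99) and Pim2 (0.97) for Dmkn, and Bnc2 (0.95) and Mdk (0.95) for Gm364. Col18a1 (0.97) and Sec16a (0.96) were most like Pex6. For Fstl5 the nearest were Eno3 (0.88) and Mdfic (0.87) on its brighter probe set, and C130073F10Rik (0.96) and Eno3 (0.93) on 1436800_at. The brightest Plcxd1 probe set (1440505_at) had 4930486L24Rik (0.72) and Ina (0.69). Mras and Gsta3 thus shared Kank4, Glod5 and Dmkn shared Tmem98, and Plcxd1 and Dmkn shared Pim2.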

How the data were processed

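The authors hybridised total RNA of 10 ESC samples, each to 1 Affymetrix mouse expression array, and deposited linear intensities, 1 for each probe set, made with RMA (version not given in the sources used here), which corrects background and brings all arrays to nearly the same distribution. A shift of most genes would not show, and differences of dim probe sets are compressed. Here log2 intensities were fitted with limma 3.58.1 (R 4.3.3), on group means and without a filter. The 64 control probe sets were left out, and p-values were adjusted over 45037 probe sets (Benjamini-Hochberg, threshold 0.05, two-sided). Wapal or Smc3 depletion against Empty Vector used 6 arrays, other comparisons all 10, and comparisons with Empty Vector share its 2 arrays. Errors are SE of these fits unless called SD. The fit was tested on simulated data.

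Of the probe sets, 34945 have 1 gene symbol in the platform annotation, 932 several and 9160 none here. Levels of different probe sets were not compared. The members and gene lists were chosen with earlier results of these data known. Genes named were the members on every probe set, both targets, the 2 genes most like each member, the 2 nearest measured genes on either side, and list genes that passed a test; genes with a gap of at least 1 were named after their values were seen. Groups follow the GEO labels. Alternatives were quantile normalization, an offset of 16, a minimum mean log2 of 6, eBayes with trend and robust settings, the replicate block, the side of the array, all 10 arrays in 1 fit, the methods' t-test and leaving out each array. Precision is limited by the number of arrays.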

Additional observations from a re-analysis of the deposited data

Results flagged for a closer look

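Hairpins against the same target differed by limma in 5 cases, on 4 probe sets of the 10 genes. Wapal shRNA1 was above Wapal shRNA2 for Fam43a (0.65, adjusted p = 0.00866) and Gm364 (0.95, adjusted p = 0.0204). Smc3 shRNA1 was below Smc3 shRNA2 for Fam43a (-0.41, adjusted p = 0.0211) and above it for Glod5 (1.03, adjusted p = 0.00056) and Dmkn (0.60, adjusted p = 0.0159). Without 1 of the arrays compared, the call of Fam43a between Smc3 hairpins was lost in every case. Those of Fam43a between Wapal hairpins, Gm364 and Dmkn were lost in more than 1 case each, whereas Glod5 kept its call in every case. These differences run along the sides of the arrays, and the part of the side was not tested.

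On 3 Pex6 probe sets, every Wapal array lay below and every Smc3 array above both Empty Vector arrays, with Wapal minus Smc3 at -1.54 (1454738_x_at), -1.55 (1424078_s_at) and -1.35 (1451226_at). This opposition was not tested, since the gene was chosen for the difference.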

How the results depend on the processing

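Counts of called probe sets moved with the setting. For all depletions against Empty Vector the number of the 10 genes called moved less, which follows in part from their choice. Between hairpins against the same target that number moved too. The side of the array as a covariate gave 2088 for all depletions against Empty Vector. The methods' t-test after Benjamini-Hochberg gave 14 there, 1116 for Wapal against Smc3, 3 for Wapal and 0 for Smc3 depletion against Empty Vector; unadjusted it gave 7056 and 5485 for these last 2, and limma called 2661 and 3434 after adjustment. Between Wapal hairpins the count was 2375 with an offset of 16, 2700 with a mean log2 of at least 6, 3496 with trend and robust settings, and 0 with 2 labels exchanged, where 0 of the 10 genes passed. Wapal depletion against Empty Vector gave 4567 with trend and robust settings and 4264 with all 10 arrays in 1 fit. Leaving out 1 array gave 1067 (without Empty Vector replicate 1) to 3685 for all depletions, 132 to 2904 between Wapal hairpins, 2287 to 6605 between Smc3 hairpins, 4968 to 8796 for Wapal against Smc3, 496 to 2281 for Wapal and 1534 to 4199 for Smc3 depletion; a lone array was taken to vary like the other groups. Of the 10 genes, 7 to 8 passed against Empty Vector when 1 array was left out, 0 to 3 between Wapal and 1 to 3 between Smc3 hairpins.

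Same-numbered replicates did not deviate together (r of -0.16 to 0.06 over 10 pairs of groups), so the numbers do not pair the arrays. With the replicate block, 3212 probe sets and again 8 of the 10 genes passed for all depletions against Empty Vector, and 1192, 5144, 7231, 1920 and 3069 passed in the other comparisons. No called value of the 10 genes changed sign under these alternatives, whereas values that had not passed did so in 42 cases, such as Gm364 with Wapal depletion against Empty Vector (-0.07 without Empty Vector replicate 1, against 0.13). Values given as a description moved by more than the replicate SD in 16 cases for Wapal against Smc3, 15 for Wapal and 17 for Smc3 depletion against Empty Vector. Where it was tested, Fstl5 lost its call for all depletions against Empty Vector in 5 cases, all on leaving out 1 array, and no other probe set of the 10 genes did. A mean log2 of at least 6 took Fstl5, Dmkn and Plcxd1 out of the test, which left 6 of the 10 genes called. Glod5, 1 of these 6, reached that mean (6.58) only through the Smc3 arrays (7.91). Its means with Wapal depletion (5.63) and Empty Vector (5.79) were under 6, so its call is limited by brightness too. The median over its probe sets put Wapal minus Smc3 at -0.91 for Plcxd1 and -1.35 for Pex6. Brightness limits Fstl5, Dmkn, both probe sets of Plcxd1, 1423437_at of Gsta3 and 1456302_at of Pex6, which were dim.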
